A study of Mus musculus with 6 samples.

Results

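Normal progression of proB cells from Hardy fraction B to fraction C was described from a pair of RNA-seq libraries of wild-type mice (wt), out of 6 libraries in a series on mutants of Ikaros, the zinc finger transcription factor encoded by Ikzf1. The series sets mice mutant in zinc finger 1 or zinc finger 4 of Ikaros beside wt, with 1 library for each genotype and fraction. Both libraries described here came from C57BL/6 mice of 6 to 7 weeks that carried no Ikaros mutation, and both held total RNA of proB cells sorted out of bone marrow. One held fraction B and the other a pool of fractions C and C', called fraction C below, so what belongs to C and what to C' could not be separated. The labels do not say how many animals entered a library, nor which antibodies and gates were used.

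Levels are given as RPKM, read numbers divided by transcript length and library size, as computed by the authors. Genes were taken by their symbol, with the transcript of highest mean RPKM over the 6 libraries standing for each, and a mean of at least 1 RPKM was required. Of 22098 symbols 10943 passed, and the mutant libraries entered only this mean, by which genes are also grouped by level below. Each difference is fraction C minus fraction B on the log2(RPKM + 1) scale, so that 1 stands for a 2-fold higher and -1 for a 2-fold lower value in fraction C. Adding 1 makes folds of genes with low values look smaller. With 1 library a fraction there was no test and no replicate error: each value compares these libraries and has no replicate check. Of the genes nearest to the filter, the 15 with a mean of 1.0 RPKM stood between 0.3 and 2.0 RPKM in the wt libraries, and the 20 at 0.983 RPKM, left out, between 0.1 and 1.6.

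B lymphocytes are made in the bone marrow in steps that Hardy's scheme separates by surface proteins. In fraction B, cells join D to J segments of the immunoglobulin heavy chain locus with the Rag recombinase; in fractions C and C', which carry the surface peptidase BP-1, V to DJ joining is completed. A heavy chain that pairs with the surrogate light chain then forms the preB-cell receptor, and cells that carry it divide rapidly, with the recombinase turned down, before light chain genes are joined.

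Enpep, which encodes BP-1, stood at 3.5 RPKM in fraction B and 56.6 RPKM in fraction C. Its difference of 3.68 was the largest of any kept gene in either direction, and as a stage marker it checks the labels and is no finding. The other genes of the sort and stage list differed less. Cd24a, the heat-stable antigen whose surface level increases towards C', stood at 130.1 and 205.6 RPKM in fractions B and C (0.66). Spn, which encodes the CD43 of proB cells, was at 82.3 and 76.1 RPKM, and Ptprc, which encodes CD45 and its B220 form, at 85.2 and 67.0. General proB genes were high in both libraries: the B-cell receptor partner Cd79a was at 301.2 and 234.8 RPKM and Pax5, the factor that commits cells to the B lineage, at 235.4 and 227.0.

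The libraries resembled each other at most genes. Across the 10943 genes the log2 levels correlated with a Pearson r of 0.977, a description across genes, which are not independent replicates. The most abundant entries included B2m, the light chain of MHC class I (1393.3 and 1279.9 RPKM), the actin-binding peptide Tmsb4x (1313.0 and 948.8 RPKM), the chaperone Hsp90ab1 (637.3 and 1026.2 RPKM, 0.69) and the tubulin Tubb5 (625.3 and 884.3 RPKM). The median difference was 0.06, and the middle 95% of genes lay between -0.73 and 0.69. At least 2-fold higher in fraction C were 37 genes (0.338% of those compared), and at least 2-fold lower were 111 (1.01%). At the smaller fold of 1.5, the counts were 529 higher (4.83%) and 490 lower (4.48%). By any amount, 56.7% of genes were higher and 40.9% lower. Genes at least 2-fold apart occurred at most levels: of 966 genes with a 6-library mean of 1 to 2 RPKM 8 were higher and 11 lower, and of 406 genes at 100 RPKM or more 0 were higher and 8 lower. Each gene group below is read beside these shares.

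**Figure D1:**
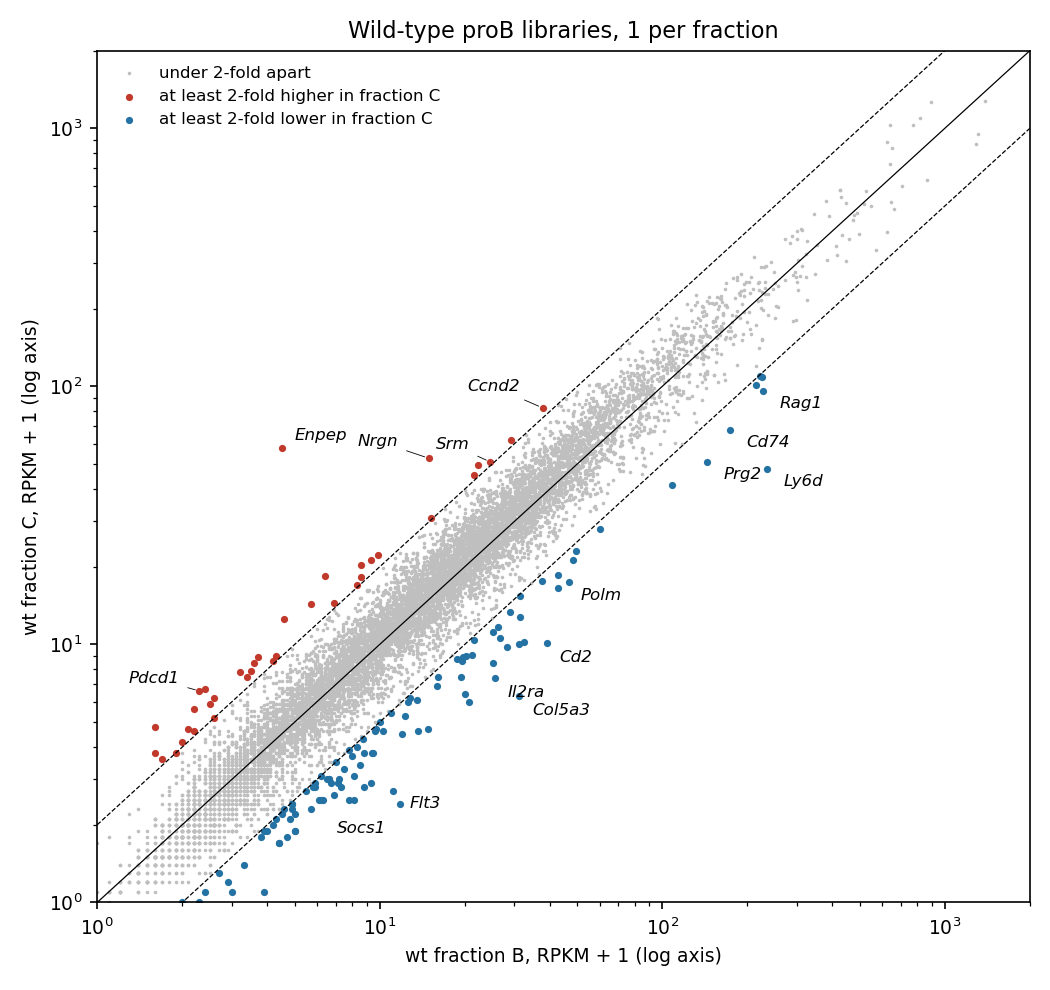
RPKM + 1 of 10943 genes in wt fraction B (horizontal) and wt fraction C (vertical), both on log axes, 1 point per gene. The solid line marks equal values and the dashed lines a 2-fold difference; 37 genes lie above the upper line, with Enpep farthest from it, and 111 below the lower one.

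After Enpep, the genes with the largest difference towards fraction C had mostly low levels. Nrgn, a calmodulin-binding protein best known from neurons, was an exception, at 13.9 RPKM in fraction B and 51.7 RPKM in fraction C (1.82). Pdcd1, the inhibitory receptor PD-1, stood at 1.3 and 5.6 RPKM (1.52), and Mmp14, a membrane-bound matrix protease, at 4.7 and 13.3 RPKM (1.33). The cytokine genes Il33 (2.6 and 7.5 RPKM, 1.24) and Il18 (2.5 and 6.9 RPKM, 1.17) and the metallothionein Mt1 (7.6 and 19.3 RPKM, 1.24) were among the 15 genes with the largest differences in this direction. So were Wapal, which releases cohesin from chromosomes (8.3 and 20.3 RPKM, 1.20), Pfn2, an actin-binding profilin (1.5 and 4.9 RPKM, 1.24), Kcnmb4, a subunit of potassium channels (0.6 and 2.8 RPKM, 1.25), and Rsph1, known from the radial spokes of cilia (21.2 and 48.8 RPKM, 1.17). Klhl32 (0.6 and 3.8 RPKM, 1.58) and Fam195a (2.7 and 7.9 RPKM, 1.27) complete them, with the collagen genes given further on.

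On the lower side, the genes with the largest differences mostly had higher levels than those. Ly6d, a surface protein of B-lineage progenitors that plasmacytoid dendritic cells also carry, stood at 233.7 RPKM in fraction B and 46.7 RPKM in fraction C (-2.30). Col5a3, a chain of type V collagen, was at 30.2 and 5.3 RPKM (-2.31), and Reln, the secreted matrix protein reelin, at 10.8 and 1.4 RPKM (-2.30). In a bulk sample like these, fewer cells of a type and less RNA per cell cannot be told apart. Flt3, the cytokine receptor of lymphoid progenitors that committed B cells shut off, followed with 10.1 and 1.7 RPKM (-2.04). Adam19, a membrane metalloprotease (30.2 and 9.0 RPKM, -1.64), Rnase6, a secreted ribonuclease (31.4 and 9.2 RPKM, -1.67), Lynx1, a modulator of acetylcholine receptors (19.7 and 5.0 RPKM, -1.79), and Tmem163, a zinc transporter (7.1 and 1.5 RPKM, -1.70), also stood among the 15 largest. The remaining ones are given with their groups.

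The recombinase genes and the junction polymerases Dntt and Polm were lower in fraction C, while genes of end joining went both ways. Rag1, the subunit of the recombinase that cuts DNA, stood at 225.5 RPKM in fraction B and 94.8 RPKM in fraction C (-1.24). Its partner Rag2 was at 44.5 and 29.6 RPKM (-0.57). Dntt, the terminal transferase that adds untemplated bases at the junctions, was at 568.7 and 335.4 RPKM (-0.76), still among the higher values of the table. The polymerases that fill in the ends differed in direction: Polm was at 45.6 and 16.5 RPKM (-1.41), the largest difference in this group, and Poll at 9.5 and 13.0 RPKM (0.41). Dclre1c, the Artemis nuclease that opens hairpin ends, was at 8.7 and 6.3 RPKM (-0.41).

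The Ku proteins, which hold broken ends, differed in direction as well. Xrcc5 (Ku80) stood at 10.9 and 18.9 RPKM (0.74) and Xrcc6 (Ku70) at 205.9 and 158.5 RPKM (-0.38). Of 15 recombination and end-joining genes, all kept, 7 were higher and 8 lower in fraction C, with a median of -0.20. At least 1.5-fold higher was 1 (6.67%) and lower 3 (20%), beside 4.83% and 4.48% of all genes. Of the lower ones 2 (13.3% of the list) were at least 2-fold lower, beside 1.01% of all genes. Prkdc, the kinase that Ku recruits, was at 6.5 and 8.0 RPKM (0.26), Lig4, the ligase of the last step, at 24.0 and 20.8 RPKM (-0.20), and its partner Xrcc4 at 7.9 and 5.6 RPKM (-0.43).

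The surrogate light chain, which stands in for a light chain on the preB-cell receptor, had nearly equal RNA levels in the fractions. Igll1, which encodes lambda5, stood at 639.9 and 724.9 RPKM in fractions B and C (0.18), Vpreb1 at 143.5 and 143.7 RPKM, and Vpreb2 at 28.7 and 31.9 RPKM (0.15). Vpreb3 was at 707.2 and 597.5 RPKM (-0.24). Igll1, Vpreb1 and Vpreb2 thus lay close to the median of all genes. The values for Vpreb1 and Vpreb2 are uncertain, since they are near-identical copies whose reads the authors' counting may have split.

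Several genes that pass the receptor's signal on were lower in fraction C. Cd79b, a signalling chain of the receptor, stood at 622.3 and 396.8 RPKM (-0.65), and its partner Cd79a had a difference of -0.36. The kinase Syk, which the table lists as Sykb, stood at 288.8 and 178.8 RPKM (-0.69), and Blnk, the adaptor that Syk phosphorylates, at 323.7 and 215.0 RPKM (-0.59). The adaptor Bank1 was at 5.1 and 2.9 RPKM (-0.65). Other kinases of the pathway, and the phospholipase Plcg2, had closer values: Btk (81.5 and 74.2 RPKM, -0.13), Lyn (50.1 and 41.5, -0.27) and Blk (82.2 and 92.9, 0.17), and Plcg2 (97.6 and 107.6, 0.14). In all, 6 of 19 genes of this list were higher and 13 lower, with a median of -0.21. At least 1.5-fold lower were 4 (21.1%) and higher 0, beside 4.48% and 4.83% of all genes. The count at least 2-fold apart was 0, beside 0.338% of all genes higher and 1.01% lower, so a list this short would hold few.

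Of 27 kept transcription factors of the B lineage, 10 were higher and 16 lower, and the median was -0.08. At least 2-fold apart were 0, beside 0.338% of all genes higher and 1.01% lower, so few would be counted in a list of this size. The factors that set up the B-cell programme stayed close: Ebf1 was at 178.8 and 156.3 RPKM (-0.19), Tcf3, which encodes E2A, at 217.5 and 212.5 RPKM (-0.03), and Pax5 had a difference of -0.05. Ikzf1 was at 150.3 and 169.4 RPKM (0.17) and its relative Ikzf3 (Aiolos) at 61.9 and 51.4 RPKM (-0.26). The 3 factors at least 1.5-fold apart (11.1%) were all lower in fraction C, beside 4.48% of all genes. They were Id2, an inhibitor of E proteins (7.2 and 3.9 RPKM, -0.74), Spib, an Ets factor (297.3 and 179.7 RPKM, -0.72), and Foxo1, which drives Rag transcription (57.8 and 37.6 RPKM, -0.61). Erg, an Ets factor of progenitors, followed at 113.0 and 76.9 RPKM (-0.55). On the higher side Gfi1, a repressor (11.7 and 14.9 RPKM, 0.32), Lef1, a Wnt pathway factor of proB cells (117.2 and 139.2 RPKM, 0.25), and Id3, another inhibitor of E proteins (31.4 and 37.5 RPKM, 0.25), had the largest differences.

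**Figure D2:**
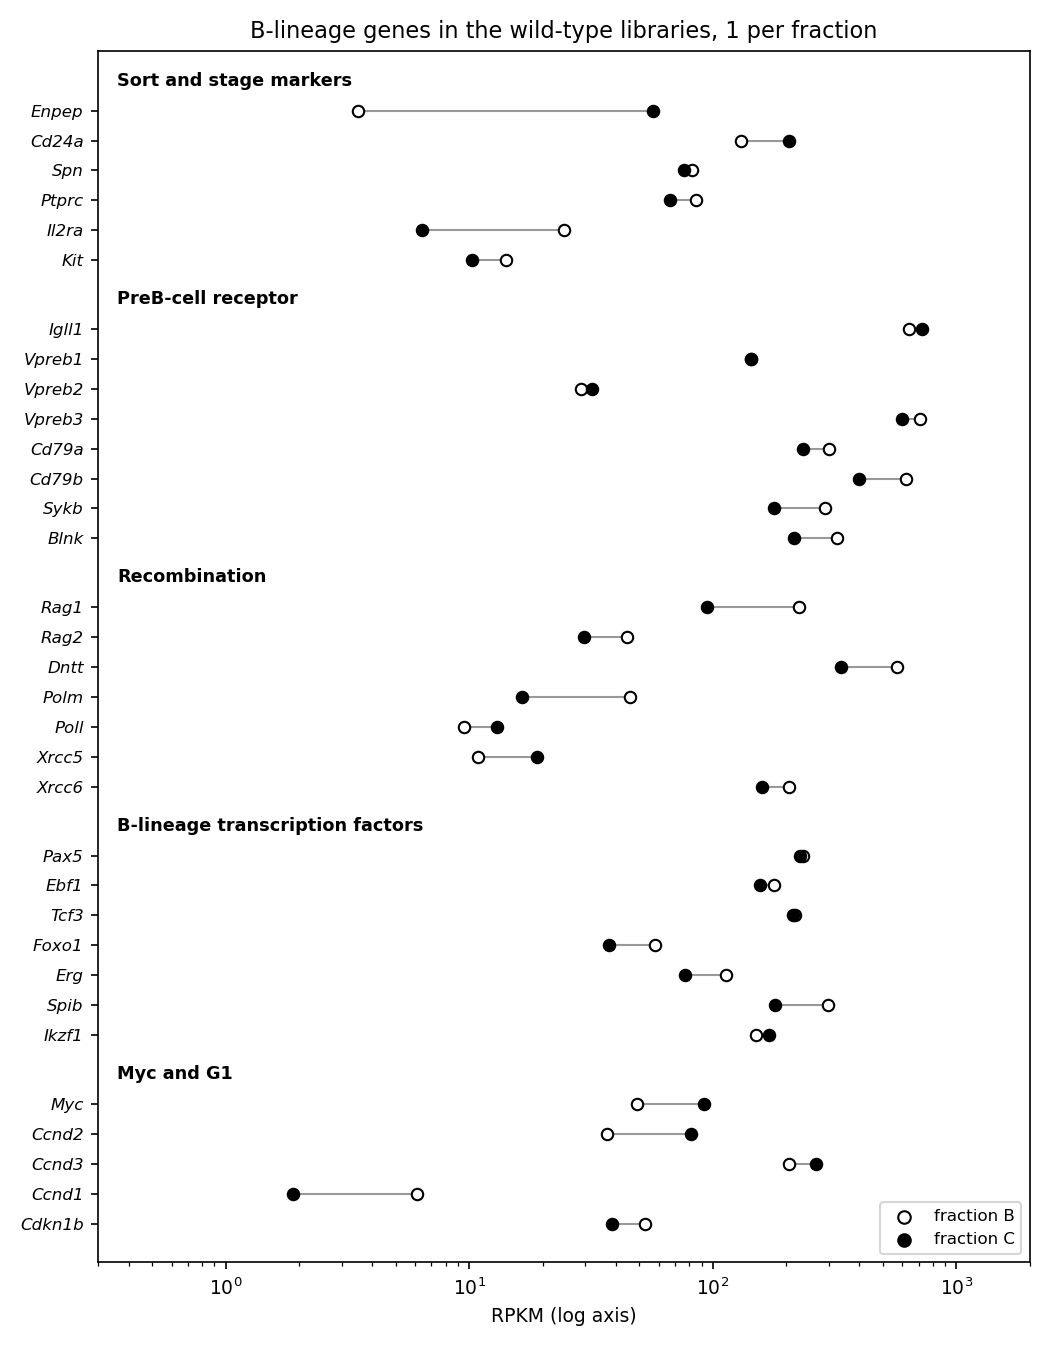
RPKM (log axis) of B-lineage genes in wt fraction B (open circles) and wt fraction C (filled circles), 1 library each, joined by a line per gene. Enpep and Ccnd2 lie farther right in fraction C, Rag1, Dntt, Polm, Il2ra and Ccnd1 farther left, and Pax5, Tcf3 and Vpreb1 nearly coincide.

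The IL-7 receptor supports survival and division of proB cells through the kinases Jak1 and Jak3 and the factor Stat5. The receptor and its relay differed little: Il7r stood at 110.2 and 96.2 RPKM (-0.19), Jak1 at 67.2 and 61.2 RPKM (-0.13), Jak3 at 19.5 and 23.2 RPKM (0.24), and Stat5b at 21.4 and 19.6 RPKM (-0.12). Genes that the pathway induces differed among themselves. Socs1, a feedback inhibitor of Jak kinases, was at 6.8 and 1.5 RPKM (-1.64), the kinase Pim2 at 11.3 and 4.3 RPKM (-1.21) and Pim1 at 59.5 and 38.5 RPKM (-0.62). Cish, another feedback inhibitor, was at 5.0 RPKM in both, and Socs2 was at 5.3 and 8.0 RPKM (0.51). Il2ra, which encodes CD25 and which Stat5 can induce, stood at 24.5 and 6.4 RPKM (-1.78). Of the 16 kept genes 4 were higher and 11 lower, with a median of -0.13.

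Genes of DNA replication and mitosis, given below, were all higher in fraction C, while Myc network and G1 genes were divided. Myc, a transcription factor that drives growth and ribosome production, stood at 48.7 RPKM in fraction B and 91.7 RPKM in fraction C (0.90). Its antagonists, which share the partner Max, were divided: Mxd4 was at 39.9 and 24.2 RPKM (-0.70), Mxd1 at 14.4 and 9.9 RPKM (-0.50) and Mxd3, which is made in dividing cells, at 26.1 and 34.4 RPKM (0.39). Max itself was at 35.5 and 36.4 RPKM. Mlxip, a glucose-sensing relative, was at 59.4 and 39.3 RPKM (-0.58). The 11 kept genes of this network had a median of 0.01, which was below 0 (-0.08) when the libraries were scaled to equal sums of RPKM, as were the differences of Max, Mga and Mnt.

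The D-type cyclins, which start the cell cycle with Cdk4 and Cdk6, differed in direction. Ccnd2 stood at 36.7 and 81.6 RPKM (1.13), Ccnd1 at 6.1 and 1.9 RPKM (-1.29), and Ccnd3, which dividing preB cells need, at 205.2 and 264.8 RPKM (0.37). The kinases were both higher, Cdk4 at 159.8 and 219.7 RPKM (0.46) and Cdk6 at 20.7 and 30.2 RPKM (0.52). Cyclin E, which acts at the start of DNA synthesis, was at 24.3 and 38.1 RPKM for Ccne1 (0.63). The inhibitors Cdkn1b (52.8 and 38.4 RPKM, -0.45) and Cdkn1a (31.0 and 23.5 RPKM, -0.39) were lower, and Cdkn2c (40.2 and 53.3 RPKM, 0.40) was higher. In this list 14 of 21 kept genes were higher and 7 lower, with a median of 0.37.

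All 43 DNA replication genes were higher in fraction C, with differences from 0.28 to 0.90 and a median of 0.52. Of them 13 (30.2%) were at least 1.5-fold higher, beside 4.83% of all genes, and 0 were at least 2-fold. They include the Mcm helicase, which unwinds DNA (Mcm2, 106.5 and 172.1 RPKM, 0.69; Mcm6, 176.5 and 262.8 RPKM, 0.57), and the clamp loader (Rfc5, 13.1 and 25.4 RPKM, 0.90). Gins1, part of the same helicase, was at 23.4 and 42.4 RPKM (0.83), and Tyms, which makes thymidylate, at 8.9 and 11.0 RPKM (0.28), the lowest difference of the list. The 34 mitosis genes were also all higher, from 0.14 to 0.53, with a median of 0.34 and 0 at 1.5-fold. Plk1, a kinase of mitotic entry, stood at 32.8 and 47.7 RPKM (0.53), Aurka, a kinase of the spindle poles, at 35.3 and 50.4 RPKM (0.50), Top2a, which untangles chromosomes, at 228.3 and 290.6 RPKM (0.35), and the kinetochore gene Ndc80 at 20.7 and 22.9 RPKM (0.14). The largest difference of a mitosis gene was thus near the median of the replication genes. Together with the nucleolar list described below, these lists hold 106 genes, and all 106 were higher in fraction C, beside 56.7% of all genes.

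Because the genes of each of these lists were higher together, promoters of a few are shown. RefSeq promoters, 250 bases before to 50 bases after each transcript start on build GRCm38.p6, were searched on both strands for 8 short motifs, 4 of which are known from genes of this kind. The E2F type was TCCCGCC or TTGGCGC, the CHR element of mitotic genes TTTGAA, the NF-Y type CCAAT, and the Myc type E box CACGTG. The motifs can overlap: CCAAT read on the other strand is ATTGG, which shares letters with TTGGCGC after an A. For each list the promoters of the 2 members with the largest difference that hold the motif are printed 5' to 3' along the gene, with its matches on either strand in capitals. Matches to other motifs are not marked.

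For DNA replication these were Pold2, a subunit of DNA polymerase delta that stood at 52.7 and 87.4 RPKM (0.72), and Dtl, which has the licensing factor Cdt1 degraded (31.6 and 52.5 RPKM, 0.71). Capitals mark the E2F type, 3 matches in each. Pold2 lies on the minus strand (chr11:5878207-5878506), and so does Dtl (chr1:191575495-191575794).

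Pold2: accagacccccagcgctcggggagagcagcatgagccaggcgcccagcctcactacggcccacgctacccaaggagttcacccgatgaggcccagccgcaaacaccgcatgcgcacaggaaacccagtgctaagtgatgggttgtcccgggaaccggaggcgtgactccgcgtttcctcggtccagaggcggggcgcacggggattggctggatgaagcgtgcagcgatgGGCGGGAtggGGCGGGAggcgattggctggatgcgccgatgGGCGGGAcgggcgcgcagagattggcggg
Dtl: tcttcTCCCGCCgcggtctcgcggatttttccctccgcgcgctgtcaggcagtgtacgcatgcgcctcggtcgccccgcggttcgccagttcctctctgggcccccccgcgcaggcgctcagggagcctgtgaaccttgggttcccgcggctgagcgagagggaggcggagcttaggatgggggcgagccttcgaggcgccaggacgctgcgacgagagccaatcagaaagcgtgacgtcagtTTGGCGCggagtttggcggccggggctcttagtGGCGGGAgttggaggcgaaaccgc

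For mitosis these were Plk1, on the plus strand (chr7:122159185-122159484), and Aurka, on the minus strand (chr2:172370521-172370820). Capitals mark CCAAT and TTTGAA, with TTTGAA beginning at base 31 of the transcript in Plk1 and base 33 in Aurka.

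Plk1: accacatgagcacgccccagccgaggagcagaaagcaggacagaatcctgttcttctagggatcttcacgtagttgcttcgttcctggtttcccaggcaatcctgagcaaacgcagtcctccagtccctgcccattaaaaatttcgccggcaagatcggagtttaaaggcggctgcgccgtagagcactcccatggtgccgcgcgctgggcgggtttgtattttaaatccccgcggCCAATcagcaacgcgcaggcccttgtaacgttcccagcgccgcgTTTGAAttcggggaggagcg
Aurka: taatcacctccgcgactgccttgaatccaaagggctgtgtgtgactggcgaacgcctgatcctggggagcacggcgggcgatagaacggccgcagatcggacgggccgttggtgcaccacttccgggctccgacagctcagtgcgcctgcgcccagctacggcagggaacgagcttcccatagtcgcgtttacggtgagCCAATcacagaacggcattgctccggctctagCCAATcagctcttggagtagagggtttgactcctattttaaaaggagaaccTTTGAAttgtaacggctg

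For nucleolar genes these were Mybbp1a, a nucleolar Myb-binding protein (58.0 and 101.6 RPKM, 0.80), and Tsr1, an assembly factor of the small ribosomal subunit (22.9 and 38.2 RPKM, 0.71). Both lie on the plus strand (chr11:72441077-72441376 and chr11:74897830-74898129), and capitals mark CACGTG.

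Mybbp1a: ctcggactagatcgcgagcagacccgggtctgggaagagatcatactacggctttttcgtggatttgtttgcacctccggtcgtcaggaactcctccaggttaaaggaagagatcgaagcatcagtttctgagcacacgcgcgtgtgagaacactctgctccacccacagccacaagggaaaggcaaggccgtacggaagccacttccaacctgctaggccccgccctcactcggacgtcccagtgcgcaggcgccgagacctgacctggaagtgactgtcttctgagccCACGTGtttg
Tsr1: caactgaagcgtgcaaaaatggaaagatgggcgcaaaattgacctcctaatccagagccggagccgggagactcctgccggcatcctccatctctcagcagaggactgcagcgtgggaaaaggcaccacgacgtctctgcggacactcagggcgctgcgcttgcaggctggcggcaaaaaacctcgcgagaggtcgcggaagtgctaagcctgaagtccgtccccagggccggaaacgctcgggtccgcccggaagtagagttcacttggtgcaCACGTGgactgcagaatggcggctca

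Matches were unevenly spread over the lists. Of 31 promoters of 29 mitosis genes, 77.4% held TTTGAA and 80.6% CCAAT, beside 12.1% and 38.1% of the 11107 promoters found for 8744 of the kept genes. Of 41 promoters of 35 replication genes, 51.2% held the E2F type and 12.2% TTTGAA, beside 24.1% and 12.1%. The mitosis promoters held the E2F type in 41.9%. Of 27 promoters of 24 nucleolar genes, 22.2% held CACGTG, beside 10.3% of those of kept genes, and 14.8% the E2F type. Other lists whose genes were mostly higher held these motifs as well: the E2F type was in 56.5% of promoters of purine, pyrimidine and polyamine synthesis and 40.0% of those of oxidative phosphorylation, and CACGTG in 26.1% of the former and in 30.8% of those of aminoacyl-tRNA synthetases. TTTGAA reached 17.1% in mitochondrial ribosomal proteins and 18.2% in the interferon and in the granulocyte and monocyte lists. Over all 32851 promoters of the table the shares were 13.2% (E2F type), 17.9% (CHR element), 37.4% (NF-Y type) and 7.15% (E box). The replication, mitosis and nucleolar promoters had a median GC content of 60.0%, 59.0% and 58.0%, and those of kept genes 60.7%. The other 4 motifs were also searched. TGGGAA, the Ikaros core, was in 39.0% of replication, 19.4% of mitosis and 29.6% of nucleolar promoters, beside 22.8% of those of kept genes. TGACGT, the CRE type, was in 22.0%, 6.45% and 14.8%, beside 11.8%; CAGGTG, the E2A type E box, in 7.32%, 12.9% and 0.0%, beside 17.2%; and TTCNNNGAA, the STAT type, in 7.32%, 0.0% and 11.1%, beside 6.94%. A match describes the letters of the window and says nothing about binding.

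**Figure D3:**
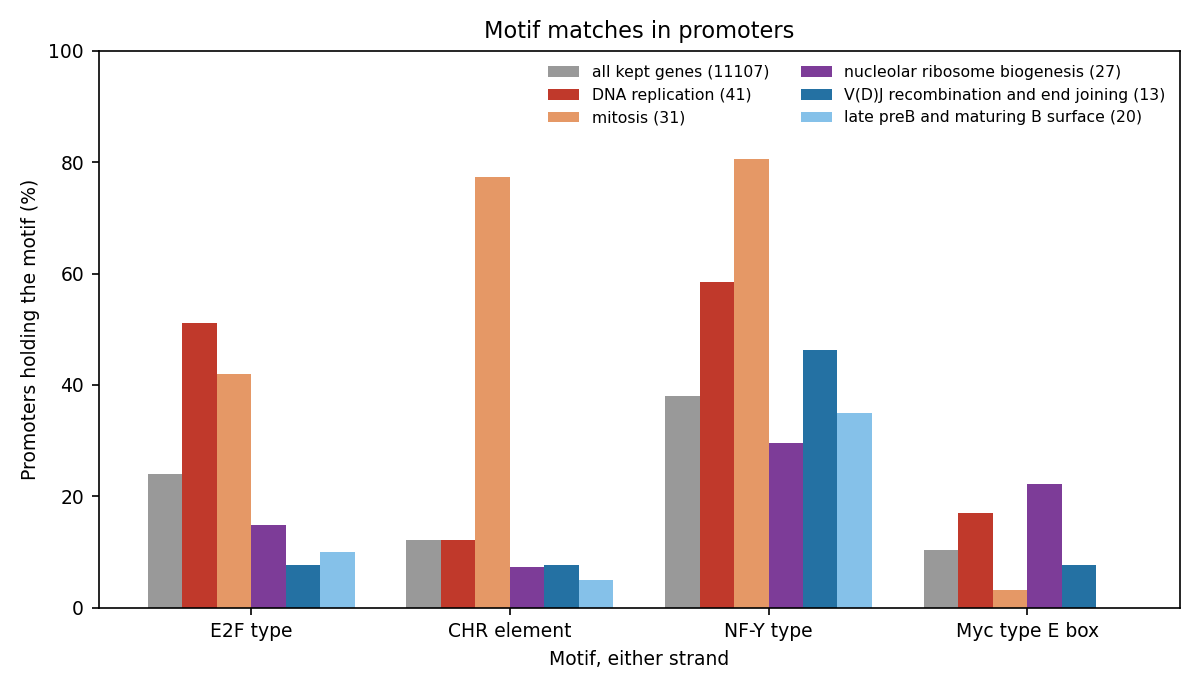
Share of promoters (%) with at least 1 match to each of 4 motifs on either strand, for all kept genes and 5 gene lists, with the number of promoters in brackets. The CHR element stands at 77.4% in mitosis promoters and at no more than 12.2% in all kept genes and the other lists drawn.

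Genes of ribosome production had the highest median of the 32 lists, leaving aside those added later. All 29 genes of nucleolar ribosome biogenesis were higher in fraction C, from 0.30 to 0.93, with a median of 0.66. Of them 21 (72.4%) were at least 1.5-fold higher, beside 4.83% of all genes. Rrp12, which exports ribosomal subunits, stood at 10.3 and 20.6 RPKM (0.93), Nolc1, a chaperone of small nucleolar particles, at 49.0 and 94.3 RPKM (0.93), and Gnl3, nucleostemin, at 43.5 and 80.1 RPKM (0.87). The abundant nucleolar proteins nucleolin (Ncl, 111.1 and 183.5 RPKM, 0.72) and nucleophosmin (Npm1, 21.8 and 39.0 RPKM, 0.81) were higher too.

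Cytosolic ribosomal proteins had a smaller shift, with 33 of 37 kept genes higher and 3 lower, and a median of 0.39. Their levels are uncertain, since many have near-identical copies in the genome: Rpl8 stood at 890.3 and 1265.3 RPKM (0.51) and Rps3 at 342.7 and 464.0 RPKM (0.44), but Rpl19 at 1.9 and 1.8 RPKM. Mitochondrial ribosomal proteins, listed after values had been seen, were higher in all 73 kept cases, from 0.09 to 0.86, with a median of 0.44.

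Enzymes that supply building blocks and energy were mostly higher as well. In the list of amino acid uptake, serine and one-carbon metabolism, 15 of 21 kept genes were higher and 6 lower, with a median of 0.47. At least 1.5-fold higher were 7 (33.3%), beside 4.83% of all genes. Shmt1, which takes a carbon unit from serine, stood at 31.9 and 64.1 RPKM (0.98), its mitochondrial form Shmt2 at 53.9 and 100.1 RPKM (0.88), and Mthfd1, which passes folate-bound carbon on, at 35.7 and 64.4 RPKM (0.83). The leucine transporter Slc7a5 was at 31.2 and 57.4 RPKM (0.86). Stress-response members were divided. Sesn2 was at 2.0 and 1.3 RPKM (-0.38) and Ddit3, which encodes CHOP, at 19.0 and 16.1 RPKM (-0.23), whereas the factor Atf4 was at 118.1 and 130.8 RPKM (0.15) and its target Asns, asparagine synthetase, at 2.7 and 4.3 RPKM (0.52).

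In glycolysis 14 of 19 kept genes were higher and 3 lower, with a median of 0.33. Ldha, which makes lactate, stood at 44.7 and 88.5 RPKM (0.97), Tpi1, triose phosphate isomerase, at 19.2 and 37.5 RPKM (0.93), and Pfkl, of the committing step, at 21.4 and 35.1 RPKM (0.69). The glucose transporters were nearly equal or lower, Slc2a1 at 8.8 and 9.4 RPKM (0.09) and Slc2a3 at 15.4 and 13.3 RPKM (-0.20). All 32 kept genes of oxidative phosphorylation were higher, from 0.18 to 1.07, with a median of 0.38; the top one, Atp5g1 (1.0 and 3.2 RPKM), has near-identical copies and is uncertain. Uqcrq, of respiratory complex III, was at 32.6 and 61.7 RPKM (0.90). Cholesterol synthesis was divided, with 6 higher and 9 lower of 20 kept genes and a median of 0.00.

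**Figure D4:**
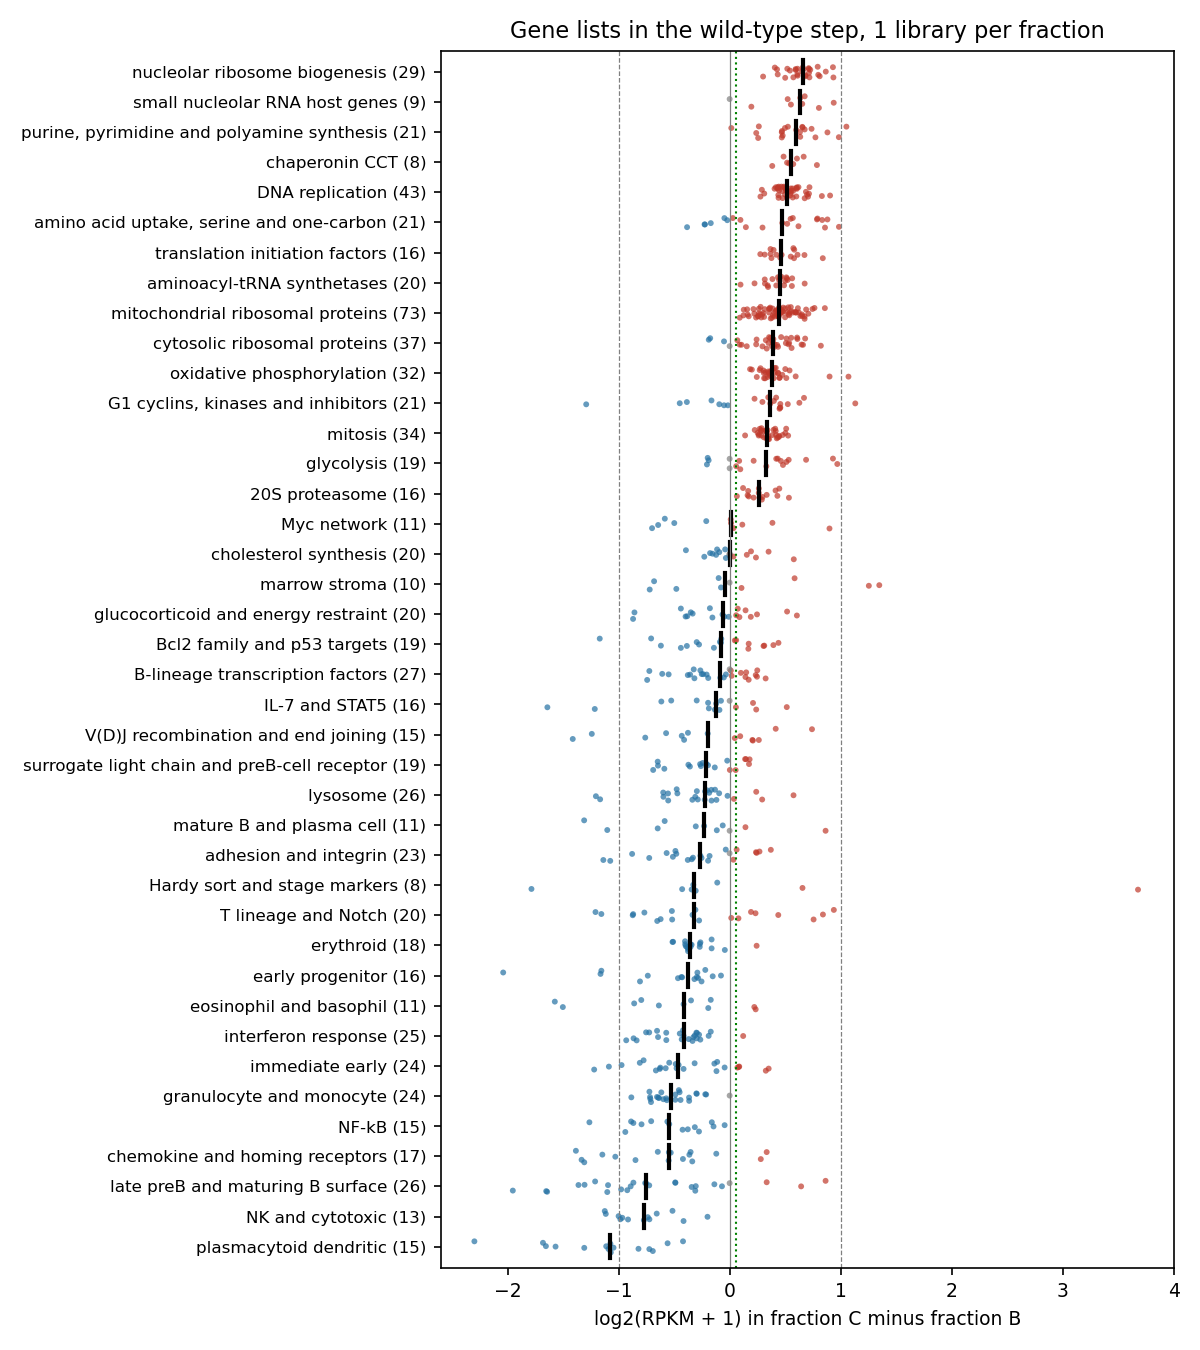
Difference in log2(RPKM + 1), fraction C minus fraction B, of each kept gene (points) in 40 gene lists, with the number of kept genes in brackets and the list median as a black bar. The dotted line is the median of all genes (0.06) and the dashed lines mark 2-fold; nucleolar, replication and mitosis genes lie wholly to the right of 0, and NK and plasmacytoid dendritic genes wholly to the left.

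Genes of maturing B cells were lower in fraction C. Of 26 kept genes in the list of late preB and maturing B-cell surface proteins, 22 were lower and 3 higher, with a median of -0.76. At least 2-fold lower were 8 (30.8%), beside 1.01% of all genes. At least 1.5-fold lower were 15 (57.7%) and higher 2 (7.69%), beside 4.48% and 4.83% of all genes. Cd2, an adhesion receptor, stood at 38.1 and 9.1 RPKM (-1.95), Cd40, a co-stimulatory receptor, at 7.8 and 1.8 RPKM (-1.65), and Faim3, the receptor for IgM, at 19.0 and 5.4 RPKM (-1.64). Ms4a1, which encodes CD20, was at 15.1 and 6.5 RPKM (-1.10), Cd38, an ectoenzyme, at 36.6 and 16.6 RPKM (-1.10), and Cd55, a complement regulator, at 7.8 and 2.8 RPKM (-1.21). Fcrl1, an Fc receptor relative of B cells, was at 8.4 and 2.8 RPKM (-1.31).

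Antigen presentation genes in the same list were lower by unequal amounts. Cd74, which encodes the class II invariant chain, stood at 172.7 and 66.6 RPKM (-1.36), and the class II chains H2-Aa and H2-Eb1 at 56.2 and 33.0 RPKM (-0.75) and at 20.7 and 10.9 RPKM (-0.87). H2-Ab1, the partner of H2-Aa, was at 76.7 and 61.7 RPKM (-0.31), and Ciita, which drives class II transcription, at 4.5 and 4.0 RPKM (-0.14). The 3 genes that went the other way were Cd22, an inhibitory co-receptor (32.4 and 59.8 RPKM, 0.86), Tnfrsf13b, a receptor for BAFF and APRIL (5.4 and 9.0 RPKM, 0.64), and Cxcr5, a follicle homing receptor (6.3 and 8.2 RPKM, 0.33). Dendritic cells also carry class II and Cd74, and their markers, given below, were lower in fraction C too; their part in these values was not tested.

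All 16 kept genes of early progenitors were lower in fraction C, with a median of -0.37. The 3 at least 2-fold lower (18.8%, beside 1.01% of all genes) were Flt3, Ly6a and Cd7. Ly6a, the stem cell antigen Sca-1, stood at 9.3 and 3.6 RPKM (-1.16), and Cd7, an antigen of lymphoid progenitors and of NK and T cells, at 18.6 and 7.8 RPKM (-1.16). Kit, the receptor for stem cell factor, was at 14.2 and 10.3 RPKM (-0.43) and Satb1, a chromatin organiser, at 20.4 and 14.5 RPKM (-0.47).

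Receptors that guide cells within and out of the marrow were mostly lower, 15 of 17 kept genes, beside 40.9% of all genes. Their median was -0.55, and 5 (29.4%) were at least 2-fold lower, beside 1.01% of all genes. S1pr1, the receptor for sphingosine phosphate that leads lymphocytes into blood, stood at 18.7 and 7.9 RPKM (-1.15). Cnr2, a cannabinoid receptor that holds immature B cells in the marrow, was at 5.3 and 1.5 RPKM (-1.33). P2ry14, a receptor for UDP-glucose (3.7 and 0.8 RPKM, -1.38), and the chemokine receptor Ccr9 (4.7 and 1.3 RPKM, -1.31) were lower also. Cxcr4, which keeps precursors near stromal cells, was the most abundant, at 255.2 and 201.9 RPKM (-0.34), and Ccr7, a lymph node homing receptor, was at 18.1 and 22.2 RPKM (0.28). Of 23 kept adhesion genes 16 were lower and 6 higher, with a median of -0.26; the integrins of B-cell retention were nearly equal (Itga4, 53.2 and 51.9 RPKM; Itgb1, 32.7 and 33.5), and Itgb7, of gut homing, was at 11.5 and 5.8 RPKM (-0.88). At least 1.5-fold lower were 4 adhesion genes (17.4%) and higher 0, beside 4.48% and 4.83% of all genes. At least 2-fold lower were 2 (8.7%), beside 1.01% of all genes. These were Itgb3 (5.6 and 2.0 RPKM, -1.14) and Itgax (4.9 and 1.8 RPKM, -1.08), known from platelets and from dendritic cells.

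Genes switched on by recent signals were mostly lower, 19 of 24 kept immediate early genes, with a median of -0.47 and 8 (33.3%) at least 1.5-fold lower, beside 4.48% of all genes. Klf2, a quiescence and homing factor, stood at 20.2 and 8.1 RPKM (-1.22), Dusp5, a phosphatase of the kinase ERK, at 17.7 and 7.8 RPKM (-1.09), Btg2, an inhibitor of division, at 116.8 and 59.0 RPKM (-0.97) and Jun at 19.5 and 10.7 RPKM (-0.81). Interferon response genes were lower in 24 of 25 kept cases, with a median of -0.42. They included Oas2, an RNA sensor (7.2 and 3.3 RPKM, -0.93), and the regulator Irf7 (17.7 and 10.1 RPKM, -0.75). Ifit2 was the exception, at 9.2 and 10.1 RPKM (0.12).

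Survival genes showed no common direction, with 8 higher and 11 lower of 19 kept genes of the Bcl2 family and p53 targets and a median of -0.08. Bmf, which promotes cell death, stood at 24.2 and 10.2 RPKM (-1.17). Bcl2l1, which encodes the protective Bcl-xL, was at 63.2 and 40.8 RPKM (-0.62), and Mcl1, another protector, at 79.2 and 64.3 RPKM (-0.30). Among the higher genes were Aen (9.1 and 12.7 RPKM, 0.44) and Bid (18.1 and 24.1 RPKM, 0.39). Genes that restrain metabolism were similarly divided (8 higher, 12 lower, median -0.06). Txnip, which limits glucose uptake, was at 130.7 and 71.7 RPKM (-0.86), and Tsc22d3, a glucocorticoid target, at 24.4 and 12.9 RPKM (-0.87). In the other direction Per1 was at 5.9 and 9.5 RPKM (0.61) and Ptpn6 at 117.0 and 167.9 RPKM (0.52). In the list of T lineage and Notch genes, 3 genes that relay the T-cell receptor's signal were higher: the kinase Zap70 was at 5.0 and 10.5 RPKM (0.94), the adaptor Lat at 9.5 and 17.8 RPKM (0.84) and the kinase Lck at 31.8 and 54.4 RPKM (0.76). Cd4, the helper T-cell co-receptor, was at 5.7 and 1.9 RPKM (-1.21), Cd5, another T-cell surface protein, at 2.1 and 3.2 RPKM (0.44), and the receptor Notch1 at 25.1 and 17.2 RPKM (-0.52). Cd3e, a chain of the T-cell receptor complex, was at 1.3 and 0.6 RPKM. In all 8 of the 20 kept genes were higher and 12 lower (median -0.32).

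Marker genes of several other marrow cells had reads in both libraries and were mostly lower in fraction C, those of stroma apart. Of the 70 genes kept in the NK, plasmacytoid dendritic, granulocyte and monocyte, and erythroid lists, 68 were lower, beside 40.9% of all genes. The 15 plasmacytoid dendritic genes were all lower, with a median of -1.07. At least 2-fold lower were 10 (66.7%), beside 1.01% of all genes. Summed over the genes of the list in the table, they came to 744.5 RPKM in fraction B and 336.1 RPKM in fraction C, with 0 genes listed at 0. Their defining gene Siglech stood at 24.2 and 7.5 RPKM (-1.57) and the nucleic acid sensors Tlr9 and Tlr7 at 11.8 and 5.2 RPKM (-1.05) and at 3.9 and 1.3 RPKM (-1.09). Pld4, an exonuclease of these cells, was at 48.7 and 22.0 RPKM (-1.11). Ly6d, Runx2 (8.3 and 1.9 RPKM, -1.68), Cox6a2 (13.8 and 3.7 RPKM, -1.65) and Spib belong to this list. B-lineage cells express Ly6d and Spib too, and these genes carry most of the summed RPKM. Without them the other 14 genes came to 213.5 and 109.7 RPKM, a sum added after the values had been seen. How much of that sum came from B-lineage cells was not tested.

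The 13 kept NK and cytotoxic genes were also all lower, with a median of -0.77 and sums of 120.8 and 60.6 RPKM over the list. The granule protease Gzma stood at 17.0 and 8.1 RPKM (-0.98), the chemokine Ccl5 at 28.0 and 12.3 RPKM (-1.12) and the NK receptor Ncr1 at 6.0 and 3.2 RPKM (-0.74); Klra8 was listed at 0 in fraction C. Granulocyte and monocyte genes were lower in 23 of 24 kept cases, with a median of -0.53 and sums of 4122.5 and 2893.2 RPKM. S100a9, a calcium-binding protein of neutrophils, was among the most abundant entries of either library, at 1288.6 and 870.3 RPKM (-0.57), and Mpo, myeloperoxidase, was at 83.6 and 44.8 RPKM (-0.89). Lyz1 was listed at 0 in fraction C.

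Erythroid genes differed less, 17 of 18 being lower with a median of -0.35 and sums of 561.3 and 467.3 RPKM. The anion exchanger Slc4a1 was at 47.4 and 35.8 RPKM (-0.40) and Car2, a carbonic anhydrase, the exception, at 71.5 and 84.8 RPKM (0.24). Markers of stroma had no common direction, with 4 of 10 kept genes higher and 5 lower. The collagen genes Col1a1 (1.2 and 4.6 RPKM, 1.35) and Col1a2 (1.6 and 5.2 RPKM, 1.25) were higher, the vessel cadherin Cdh5 (1.8 and 0.7 RPKM, -0.72) and fibronectin (Fn1, 11.5 and 6.8 RPKM, -0.68) lower, and Pdgfra was listed at 0 in both. Only 5 of 14 megakaryocyte genes were kept, with a median of -0.11. The 4 lists of other cells that were lower moved in the same direction as the Rag genes and the maturing B-cell, progenitor, homing, interferon and immediate early genes, and opposite to the growth genes. Their part in those differences was not tested.

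**Figure D5:**
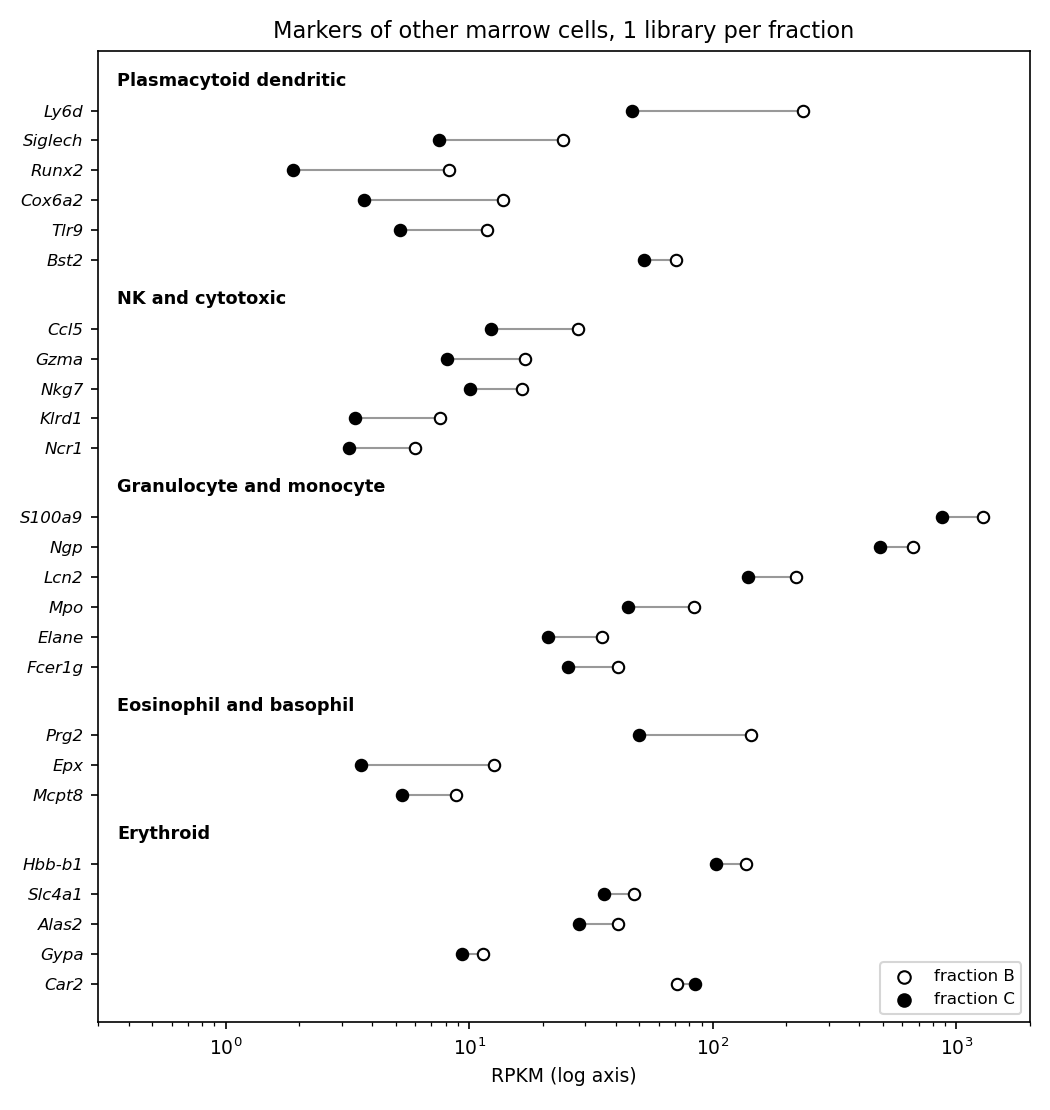
RPKM (log axis) of marker genes of other marrow cells in wt fraction B (open circles) and wt fraction C (filled circles), 1 library each, joined by a line per gene. The genes drawn are a selection from their lists. All of those drawn lie farther left in fraction C except Car2 (71.5 and 84.8 RPKM). The circles of Siglech and Epx lie farther apart than those of the erythroid genes. Of 11 kept eosinophil and basophil genes 2 were higher in fraction C, and stroma genes, with 4 of 10 kept higher, are not drawn.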

How the data were processed

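The study measured RNA by sequencing in 6 libraries of sorted mouse proB cells, of which the 2 wt libraries were compared here, 1 per fraction, grouped by the sample titles. The deposited values are RPKM per RefSeq transcript, per the file headers, given by the authors to the nearest 0.1. Per the submitters' processing notes, TopHat, bedtools and build mm9 were used, with no version or role given. How reads shared by transcripts or near-identical copies were divided, and whether strand was used, is not given in the sources used here, so overlapping genes cannot be told apart. Read numbers, and with them the depth and its precision, are unknown. A gene listed at 0 is only that.

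Of 26532 table entries 1 named no gene, and 26531 transcripts carried 22098 symbols, 3305 of them with several transcripts. Columns of other samples numbered 0. RPKM summed to 269419.7 in fraction B and 288789.7 in fraction C, and 10888 and 10727 genes reached 1 RPKM. Differences of log2(RPKM + 1), with a pseudocount of 1, were computed with Python 3.11.15, numpy 2.4.6, pandas 2.3.3 and matplotlib 3.10.9, and the computation was tested on simulated data. No further scaling was applied. No test was possible with 1 library a fraction.

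The genes named were the 15 with the largest difference in each direction, leaving out small RNAs and unnamed transcripts, every list member at least 2-fold apart, the members of the sort, preB-cell receptor, recombination, factor, IL-7, Myc and G1 lists, up to 4 members a direction of each other list, and the 8 highest RPKM in either library. A few more were named after their values had been seen, such as Cd3e, Lyz1, Klra8, Pdgfra, Itga4 and Ciita. A few genes under this rule are not reported here. The comparison, the members and the gene lists were chosen with earlier results of these data known, and 12 lists were added after the values had been seen. Promoter sequences come from RefSeq on GRCm38.p6, matched by RefSeq accession or symbol, another build than the authors' mm9; the deposited table holds no coordinates. Alternatives changed the pseudocount, the filter, the choice of transcript and the scaling.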

Additional observations from a re-analysis of the deposited data

How the results depend on the processing

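The counts of genes at least 2-fold apart, given here first for higher and then for lower in fraction C, were 77 and 208 at a pseudocount of 0.25 in place of 1, and 6 and 27 at a pseudocount of 5. A mean of at least 5 RPKM left 19 higher and 75 lower, and no filter 46 and 121. Scaling the libraries to equal sums of RPKM, to equal 75th percentiles or by the median ratio gave 24 higher and 135 lower each, so that 15.1% of these genes were higher in place of 25.0%. The median of all genes was then -0.03, and the lists with a median above 0 numbered 8 to 10 of 32, against 9. The median of the megakaryocyte list turned from -0.107 to 0.0807 with a mean of at least 5 RPKM, and to the same value with transcripts and filter taken from the wt libraries alone, with 2 members left in each. Of 2595 values of the 295 named genes 24 moved by over 1.5-fold, 22 of them with a pseudocount of 5 and 2, Klhl32 (2.25) and Kcnmb4 (1.84), with 0.25. All 43 replication, 34 mitosis and 29 nucleolar genes were higher under each scaling and pseudocount. No replicate could be left out. No paired analysis was possible because each fraction has 1 library. The unknown depth limits genes of low RPKM most.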

Other observations

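Lists added after the values had been seen gave more groups with a common direction. All 20 aminoacyl-tRNA synthetases, which load amino acids on tRNA, were higher in fraction C (median 0.45), as were all 8 subunits of the CCT chaperonin, which folds actin and tubulin (median 0.55), all 16 kept translation initiation factors (median 0.46) and all 16 kept subunits of the 20S proteasome, by less (median 0.27). Of the enzymes of purine, pyrimidine and polyamine synthesis 21 of 21 were higher, with a median of 0.60. At least 1.5-fold higher were 11 (52.4%), beside 4.83% of all genes. Srm, spermidine synthase, stood at 23.6 RPKM in fraction B and 50.0 RPKM in fraction C (1.05), Nme1, a nucleoside diphosphate kinase, at 70.1 and 139.6 RPKM (0.98), and Cad, which begins pyrimidine synthesis, at 31.8 and 59.4 RPKM (0.88). Impdh1, of guanine nucleotide synthesis, was nearly equal, at 160.8 and 162.5 RPKM. These lists were chosen for how their genes moved and support nothing.

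On the lower side, 15 of 15 kept genes of the NF-kB pathway were lower in fraction C, with a median of -0.54. The coactivator Bcl3 differed most, at 6.2 and 2.0 RPKM (-1.26), followed by Relb (10.7 and 5.1 RPKM, -0.94) and Nfkb2 (21.2 and 11.0 RPKM, -0.89) of the alternative pathway, whereas Rela (38.1 and 36.9 RPKM, -0.04) and Nfkb1 (54.4 and 49.1 RPKM, -0.15) of the classical pathway were nearly equal. Lysosomal genes were lower in 22 of 26 cases (median -0.22), with the proteases Ctsl (14.9 and 5.9 RPKM, -1.20) and Ctsh (19.2 and 8.0 RPKM, -1.17) farthest apart and Gusb, a glucuronidase, in the other direction (29.4 and 44.3 RPKM, 0.58). Of 11 kept eosinophil and basophil markers 9 were lower and 2 higher, with a median of -0.415. The list summed to 185.1 and 70.9 RPKM, most of it from Prg2, the major basic protein, at 142.9 and 49.8 RPKM (-1.50). Epx, eosinophil peroxidase, was at 12.7 and 3.6 RPKM (-1.57). Prg2 and Epx were the 2 at least 2-fold lower (18.2%, beside 1.01% of all genes). At least 1.5-fold lower were 5 (45.5%), beside 4.48% of all genes.

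Small RNA entries made up 9 of the 37 genes at least 2-fold higher and 11 of the 111 at least 2-fold lower. Of 68 kept small nucleolar RNA entries, 6 (8.82%) were at least 2-fold higher and 0 lower. Of 72 kept microRNA entries, 3 (4.17%) were at least 2-fold higher and 11 (15.3%) lower. The shares of all genes were 0.338% higher and 1.01% lower. Small nucleolar RNAs guide the modification of ribosomal RNA and are cut from introns of host transcripts. Of 68 kept entries 58 were higher in fraction C, with a median of 0.41, and their host transcripts were higher in 8 of 9 kept cases (median 0.64): Gas5 stood at 75.7 and 119.7 RPKM, Snhg1 at 71.7 and 112.0 RPKM and Snhg4 at 10.8 and 21.6 RPKM. Entries of microRNA genes were divided, 31 higher and 38 lower of 72 kept. Values of such short entries, many with near-identical copies, are uncertain.

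The transcripts of a gene did not always move together. Of 960 symbols with at least 2 transcripts at a mean of 1 RPKM or more, 145 (15.1%) had transcripts on opposite sides of 0, and the median spread between transcripts of a symbol was 0.0979. Among the genes at least 2-fold apart, 4 had several such transcripts and 0 had them in opposite directions. The exception in size was Cd40, whose coding transcript had a difference of -1.65 and whose non-coding one, at 0.7 and 0.2 RPKM, of -0.50.

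Genes of mature B cells and plasma cells were mostly lower, 8 of 11 kept, with 2 higher and a median of -0.23. At least 2-fold lower were 2 (18.2%), beside 1.01% of all genes. Of the 21 genes listed, 5 had no entry under the listed name, among them Ighm, Ighd and Igkc. Igj, the joining chain of secreted antibody, stood at 5.2 and 1.5 RPKM (-1.31), Xbp1, a factor of antibody secretion, at 35.7 and 30.3 RPKM (-0.23) and Sdc1, the plasma cell marker syndecan, at 8.5 and 8.1 RPKM (-0.06). Of 22 histone genes only 5 were kept, with a median of -0.12; many are near-identical copies, so their values are uncertain.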
